A study of Macaca mulatta with 24 samples.

Results

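Complement genes were followed in omental white adipose tissue (WAT) of female rhesus macaques, as 9 members named by symbol: the classical pathway proteases *C1R*, *C1S* and *C2*, the central component *C3*, the alternative pathway proteases *CFB* and *CFD*, the terminal components *C6* and *C7*, and the regulator *CFI*. A member was the row of the raw count table whose Ensembl identifier maps to its symbol in a gene name table. This gave 8 members among the 32386 genes of the table, and no row was matched to *C2*, which is not analysed here. The identifiers were ENSMMUG00000006470 for *C1R*, ENSMMUG00000012786 for *C1S*, ENSMMUG00000008693 for *C3*, ENSMMUG00000000729 for *CFB*, ENSMMUG00000028947 for *CFD*, ENSMMUG00000021034 for *C6*, ENSMMUG00000014171 for *C7* and ENSMMUG00000021226 for *CFI*. The 24 animals formed 4 groups of 6, with 1 RNA-seq library per animal. The controls (*C*) carried cholesterol implants and ate monkey chow, the *T* group carried testosterone implants and ate chow, the *WSD* group carried cholesterol implants and ate a high-fat Western-style diet, and the *T* + *WSD* group had the testosterone implants and the diet together. The labels give an age of 4 years for every animal, and treatment lasted 3 years. According to the study's methods, the animals were picked from larger groups as representative of each group's metabolic findings, which limits how far the spread within a group stands for the spread of all treated animals.

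Complement is a cascade of plasma and tissue proteins that tags surfaces for uptake and forms pores in membranes. *C1R* and *C1S* encode the serine proteases of the C1 complex, which opens the classical pathway by cleaving C4 and C2. All routes meet at C3, the protein whose cleavage product C3b coats targets. In the alternative pathway, factor B (*CFB*) binds C3b and is cut by factor D (*CFD*), which yields the convertase that cleaves more C3. C6 and C7 join C5b in the membrane attack complex, and factor I (*CFI*) inactivates C3b and C4b together with cofactor proteins. The liver makes most of the circulating proteins. Adipocytes are the main source of factor D, which is also called adipsin, and C3 cleaved with the help of factors B and D gives rise to acylation stimulating protein, a fragment described as promoting triglyceride storage in fat cells.

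Library totals ran from 6899185 to 28270776 counted reads (median 20630512.5), and levels are given as counts per 1000000 of the normalized library size (CPM). In 8 libraries, 2 in each group, 1 gene (ENSMMUG00000038258) took 9.92% to 54.7% of the counts, against 0.879% to 2.51% in the other 16. These 8 are called the library batch. The name is given here from the counts alone, at over 5% of a library in that gene, and the sample labels used here name no batch. The tissue label was checked by its markers: 9 of the 10 adipocyte genes listed had a row, and they summed to between 12832 and 32560 CPM in 23 libraries. Control replicate 1, a library of the batch, stood apart with 3513 CPM, and it also had the highest sum of 10 mesothelial markers, 5037 CPM, where the other animals had 111 to 2222 CPM. It was the highest of all 24 animals for *C3*, *CFB*, *CFI*, *C1S* and *C1R*, so results resting on it are given with and without it. Gene lengths were not used here, so CPM levels are compared between animals. Where a gene is named for the highest CPM of its role, that is an order of reads and not of transcripts.

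The question of the design was how testosterone and the diet, alone and together, alter gene expression in visceral fat. In *T* + *WSD* against *C*, 4 members were lower, *CFB*, *CFI*, *C3* and *C1S*, by 1.93 to 3.98 times, and 1 was higher, *CFD*, by 1.99 times. *C6*, *C1R* and *C7* did not pass the test. A gene was called in edgeR's quasi-likelihood test when its fold change exceeded 1.5 with an adjusted p under 0.05. These 5 of 8 members compare with 10% of the 15207 genes tested, 5.29% lower and 4.72% higher. The median log2 fold change of the 8 members was -1.47, and that of all tested genes was -0.04. Without control replicate 1 the median of the members was -0.94 and 4 members were called, against 5.87% of all tested genes. Outside the library batch the median was -0.82 with 0 called, against 0.505% of all tested genes. In the comparisons of a single treatment with *C*, edgeR called 0 members and 0% of all tested genes. DESeq2 called *CFI* with the diet alone (adjusted p = 0.0128).

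**Figure D1:**
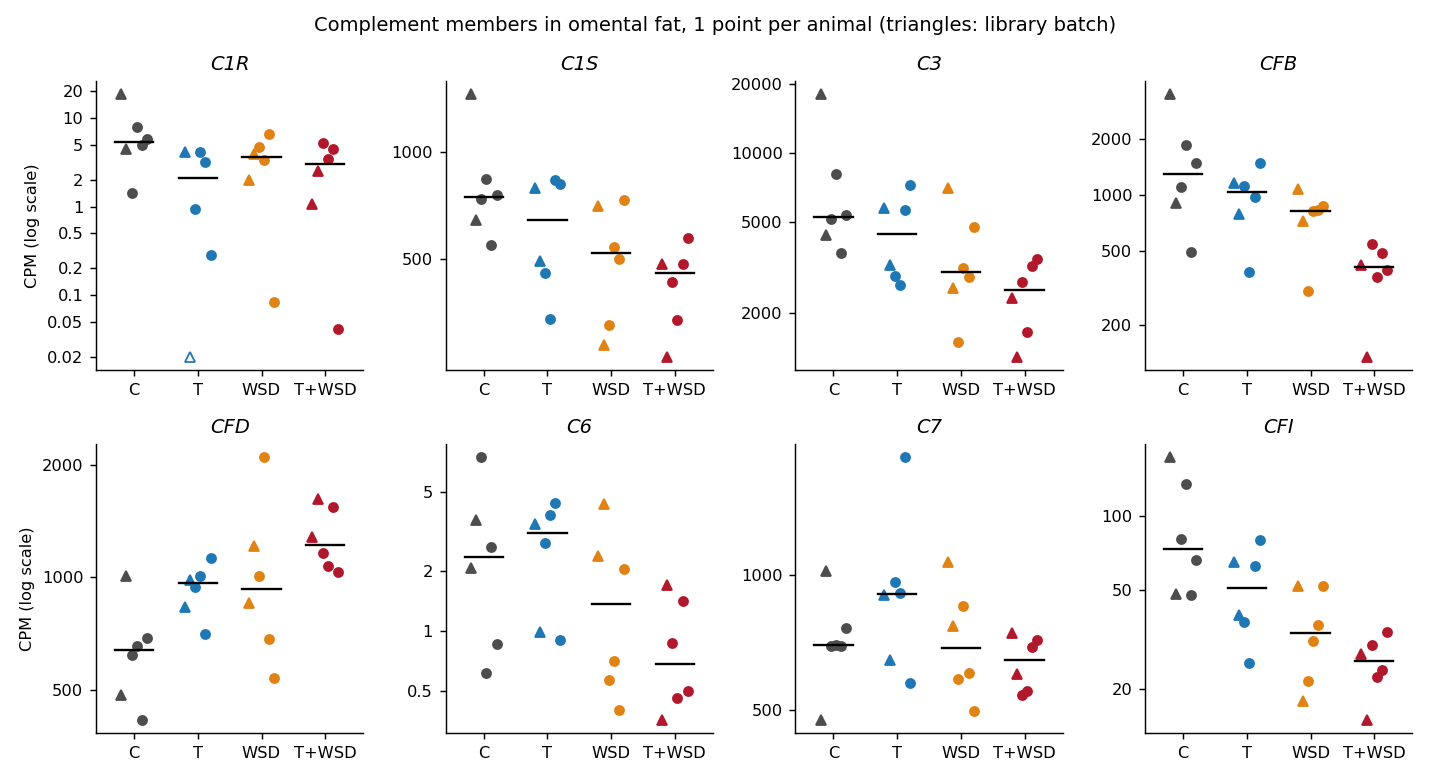
CPM on a log scale of the 8 complement members in each of the 24 animals, by group, with triangles for the library batch, a bar at the median and an open symbol at the foot for the *C1R* library with 0 counts. *C3*, *CFB*, *CFI* and *C1S* step down from *C* through *T* and *WSD* to *T* + *WSD* in their medians, *CFD* is highest in *T* + *WSD*, and *C7* stays between 476 and 1830 CPM.

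*C3* was measured at 3671 to 18032 CPM in *C* (median 5267), 2648 to 7217 in *T* (median 4456), 1508 to 7065 in *WSD* (median 3018) and 1291 to 3466 in *T* + *WSD* (median 2533). All 6 *T* + *WSD* animals lay below the lowest control, while both single treatments overlapped with *C* and with each other. The gene took from 0.0662% to 1.83% of all counts in a library. Against *C*, the *T* + *WSD* group had a log2 fold change of -1.61 ± 0.41 (SE, adjusted p = 0.0119), which is 3.05 times lower. Without control replicate 1, the highest animal at 18032 CPM, the value was -1.11 (adjusted p = 0.0485), and the gene was still called. Groups that did not overlap, with every *T* + *WSD* animal below every control, were seen for 4.12% of all tested genes.

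*CFB* encodes the protease that forms the alternative pathway convertase with C3b. It ranged from 493 to 3498 CPM in *C* (median 1301), 387 to 1484 in *T* (median 1045), 306 to 1079 in *WSD* (median 825) and 135 to 546 in *T* + *WSD* (median 409). The groups *T* + *WSD* and *C* overlapped through a single control, replicate 5 at 493 CPM, and 5 of 6 *T* + *WSD* animals lay below all controls. Its log2 fold change was -1.99 ± 0.41 (SE, adjusted p = 0.00452), and it was -1.56 (adjusted p = 0.0161) without control replicate 1. In *T* + *WSD* against *T*, edgeR called 3.77% of all tested genes. Of the members it called only *CFB*, at -1.33 ± 0.40 (SE, adjusted p = 0.0479). That call was close to the threshold, and it was lost in 17 of the 24 fits that left out 1 animal.

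*CFD*, the fat-derived protease that activates factor B, moved the other way. It was measured at 415 to 1009 CPM in *C* (median 637), 706 to 1127 in *T* (median 963), 536 to 2096 in *WSD* (median 929) and 1029 to 1619 in *T* + *WSD* (median 1219). All 6 *T* + *WSD* animals lay above the highest control, a pattern seen for 3.49% of all tested genes. The highest animal of all, *WSD* replicate 22 at 2096 CPM, was in a single-treatment group. In *T* + *WSD* against *C* the log2 fold change was 0.99 ± 0.26 (SE, adjusted p = 0.0132), and it was 0.94 (adjusted p = 0.0355) without control replicate 1.

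*CFI*, which shuts down the convertases by cleaving C3b and C4b, was at 47.97 to 173 CPM in *C* (median 73.5) and 25.3 to 79.6 in *T* (median 51.1). It was at 17.9 to 52.1 CPM in *WSD* (median 33.7) and 14.98 to 34.0 in *T* + *WSD* (median 25.8). As for *C3*, no *T* + *WSD* animal reached the lowest control, a pattern seen for 4.12% of all tested genes. The log2 fold change of *CFI* was -1.84 ± 0.35 (SE, adjusted p = 0.00322), the smallest adjusted p among the members. It was -1.54 (adjusted p = 0.0108) without control replicate 1.

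The classical pathway proteases *C1S* and *C1R* are neighbours in the RefSeq annotation of T2T-MMU8v2.0. *C1S* was at 545 to 1450 CPM in *C* (median 744), 339 to 830 in *T* (median 641), 287 to 731 in *WSD* (median 520.0) and 265 to 572 in *T* + *WSD* (median 457). Of the 6 *T* + *WSD* animals, 5 lay below all controls. The log2 fold change was -0.95 ± 0.28 (SE, adjusted p = 0.0231). This call rested on control replicate 1, since without it the value was -0.69 (adjusted p = 0.0874), and it was also lost without *T* + *WSD* replicate 8 or replicate 10.

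The *C1R* row held few reads, between 0 and 330 counts per library. It was at 1.43 to 18.6 CPM in *C* (median 5.36), 0 to 4.17 in *T* (median 2.07), 0.0832 to 6.67 in *WSD* (median 3.64) and 0.0416 to 5.20 in *T* + *WSD* (median 3.00). In 3 libraries, *T* replicate 14, *WSD* replicate 24 and *T* + *WSD* replicate 12, there were 0, 2 and 1 counts, at or under the floor of 3 counts, although *C1S* was at 494, 731 and 572 CPM in the same libraries. The ratio of *C1S* to *C1R* counts ran from 68.9 to 13752 over the 23 libraries with a *C1R* read. The log2 fold change of *T* + *WSD* against *C* was -1.33 with an interval of -3.09 to 0.42 (adjusted p = 0.288), and it was -0.76 (adjusted p = 0.618) without control replicate 1.

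The terminal components *C6* and *C7*, which join C5b in turn, lie near each other in that annotation with *MROH2B* between them. *C7* was at 476 to 1018 CPM in *C* (median 696), 575 to 1830 in *T* (median 907), 496 to 1067 in *WSD* (median 686) and 540 to 741 in *T* + *WSD* (median 646). The groups overlapped throughout, and the *T* + *WSD* values lay inside the range of the controls. Its log2 fold change of *T* + *WSD* against *C* was -0.18 with an interval of -0.66 to 0.31 (adjusted p = 0.653). The highest value, 1830 CPM, came from *T* replicate 17.

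*C6* was at a low level, 0.619 to 7.49 CPM in *C* (median 2.36), 0.906 to 4.40 in *T* (median 3.10), 0.402 to 4.34 in *WSD* (median 1.37) and 0.358 to 1.70 in *T* + *WSD* (median 0.682). Its counts per library ran from 3 to 178. The log2 fold change of *T* + *WSD* against *C* was -1.78 ± 0.65 (SE, adjusted p = 0.0611), larger in size than that of *C3*, but it missed the threshold. DESeq2 called it with an adjusted p of 0.0309.

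**Figure D2:**
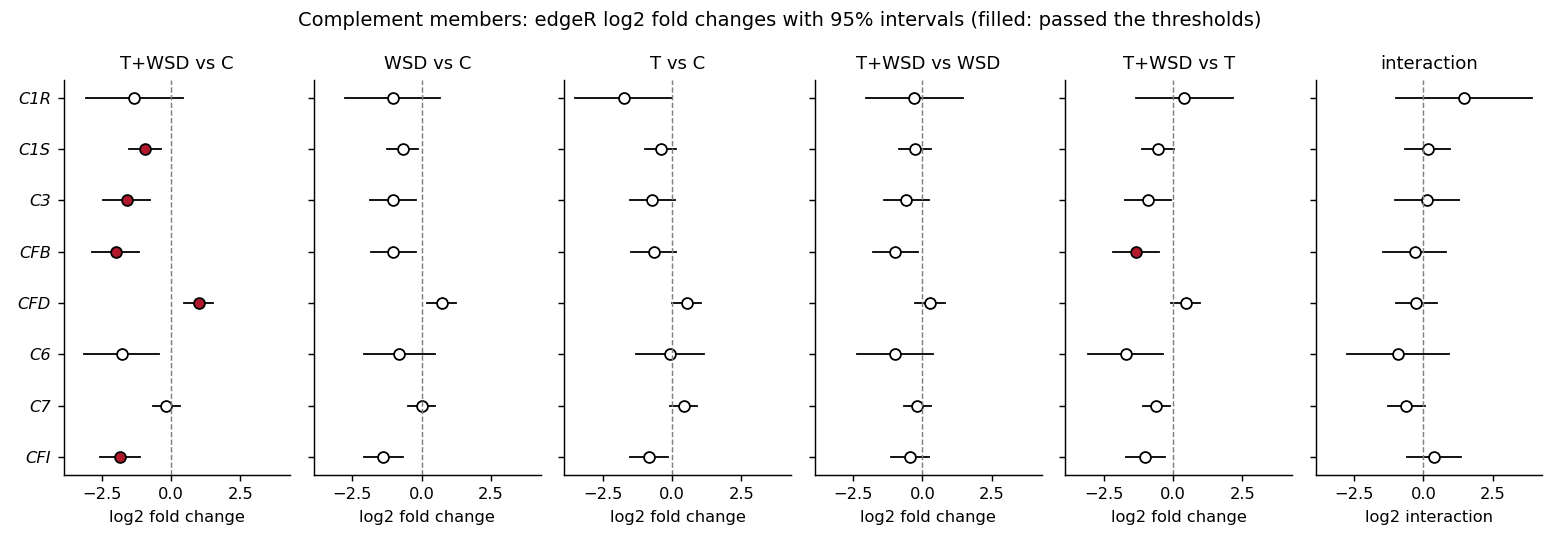
Log2 fold changes from edgeR (points) with their 95% intervals (lines) for the 8 members in the 5 pairwise comparisons and for the interaction, with filled points where a member was called. The called members are *C1S*, *C3*, *CFB*, *CFD* and *CFI* in *T* + *WSD* against *C*, and *CFB* in *T* + *WSD* against *T*.

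The diet alone was compared with *C* on chow. No member was called (0 of 8, and 0% of all genes tested with edgeR). DESeq2 called 1, *CFI*, with an adjusted p of 0.0128, against 1.58% of all genes it tested. At an unadjusted p under 0.05, 5 members were below or above *C*, against 18.5% of all tested genes. They were *CFI* with a log2 fold change of -1.38 (adjusted p = 0.131), *C3* with -1.03 (adjusted p = 0.19), *CFB* with -1.01 (adjusted p = 0.191), *C1S* with -0.69 (adjusted p = 0.198) and *CFD* with 0.72 (adjusted p = 0.166). These are the members called in *T* + *WSD*, each with the same sign, but both comparisons use the same controls, so their likeness is not a separate result. The interval for *C7* was -0.47 to 0.49.

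Testosterone alone was compared with *C* on the same diet. No member was called (0 of 8, and 0% of all genes tested with edgeR). DESeq2 called 0 as well, against 0.029% of all genes it tested. At an unadjusted p under 0.05 there were 2 members, *CFI* with a log2 fold change of -0.83 (adjusted p = 0.547) and *CFD* with 0.53 (adjusted p = 0.578), against 8.63% of all tested genes. *C3* had -0.71 with an interval of -1.53 to 0.12, *CFB* had -0.66 with -1.48 to 0.15, and *C1S* had -0.42 with -0.99 to 0.15. These intervals include no change and also a fall of the size measured in the diet group, so the data do not separate these possibilities.

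Within the diet, animals with testosterone were compared with those without. No member was called in *T* + *WSD* against *WSD* by edgeR or DESeq2, where edgeR called 0.815% and DESeq2 2.62% of all genes each tested. Only *CFB* had an unadjusted p under 0.05, with a log2 fold change of -0.98 (adjusted p = 0.166), against 20% of all tested genes. *C3* had -0.58, *CFI* had -0.45, *C1S* had -0.26 and *CFD* had 0.27, each with an interval that included 0. The effect of the diet among testosterone-treated animals was given by *T* + *WSD* against *T*. Besides *CFB*, the values were -1.004 for *CFI* (adjusted p = 0.0719), -0.90 for *C3* (adjusted p = 0.158), -1.71 for *C6* (adjusted p = 0.102) and 0.46 for *CFD* (adjusted p = 0.26). *C7* had -0.60 with an interval of -1.09 to -0.12 (adjusted p = 0.112), *C1S* had -0.53 (adjusted p = 0.226) and *C1R* had 0.42 (adjusted p = 0.801). At an unadjusted p under 0.05 there were 5 members, *CFB*, *CFI*, *C3*, *C6* and *C7*, against 25.9% of all tested genes. DESeq2 called 2 members in *T* + *WSD* against *T*, against 6.1% of all genes it tested. They were *CFB* (adjusted p = 0.0148) and *CFI* (adjusted p = 0.0383).

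The interaction asks whether the combination differed from the sum of the single effects on the log2 scale. No member was called by edgeR at an adjusted p under 0.1, and 0 had an unadjusted p under 0.05, against 0.809% and 13.5% of all tested genes. DESeq2 also called no member, against 2.77% of all genes it tested. The estimates were 0.12 for *C3*, 0.38 for *CFI*, 0.15 for *C1S*, -0.32 for *CFB* and -0.26 for *CFD*. They were larger in size for the other members, at 1.46 for *C1R*, -0.91 for *C6* and -0.61 for *C7*. Each of these also had an interval that included 0, and that for *C7* was -1.295 to 0.0704. The interval for *C3* was -1.04 to 1.29 and that for *CFB* was -1.47 to 0.83, so a departure from additivity inside these limits could not be seen or set aside with 6 animals per group.

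Ratios between members within a library do not depend on the scaling of the libraries. *CFD* to *C3* was 0.0268 to 0.230 in *C* (median 0.117), 0.125 to 0.379 in *T* (median 0.229), 0.112 to 0.666 in *WSD* (median 0.352) and 0.297 to 1.25 in *T* + *WSD* (median 0.513). Since *CFD* and *C3* each separated *T* + *WSD* from *C*, in opposite directions, this ratio had to separate them too, and its values are a description. The ratio of *CFB* to *CFI*, a part of the convertase and a protease that inactivates it, had medians of 16.4 in the controls, 18.3 with testosterone, 21.8 with the diet and 15.8 with both. *C3* to *CFI* was between 60.6 and 144 in all animals, with group medians of 78.9 to 96.3. The ranges of both ratios overlapped between all groups.

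**Figure D3:**
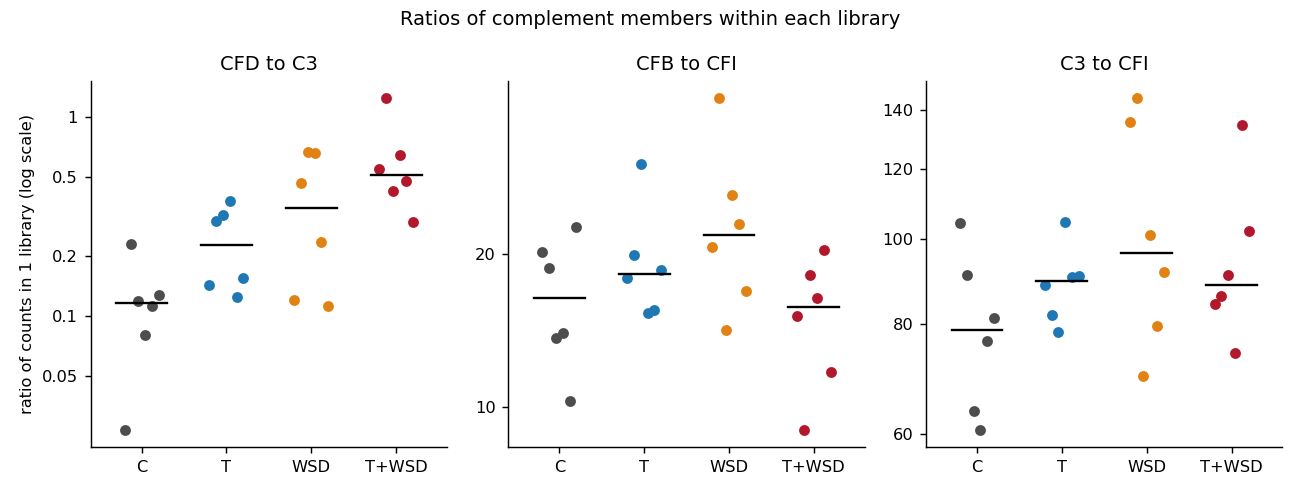
Ratios of counts within each library, on log scales, for *CFD* to *C3*, *CFB* to *CFI* and *C3* to *CFI*, with 1 point per animal and a bar at the group median. The *CFD* to *C3* ratio has its highest median, 0.513, in *T* + *WSD*, which follows from the levels of both genes, and the ranges of the other ratios overlap between all groups.

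Over the 24 animals, log2 CPM of *C3*, *C1S*, *CFB* and *CFI* varied together. Pearson's r was 0.95 for *C3* with *C1S*, 0.93 for *C3* with *CFI*, 0.90 for *C3* with *CFB* and 0.88 for *CFB* with *CFI*. After subtraction of the group means, the values were 0.92, 0.90, 0.84 and 0.81, so the members also varied together within groups. *CFD* had r of -0.57 with *C3* over all animals and -0.27 within groups. *C7* with *C3* had 0.10, and *C1R* with its neighbour *C1S* had 0.04, but without control replicate 1 these were 0.35 and -0.17. All these values come from the same libraries and scaling factors, and they are descriptions without a test.

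The genes whose log2 CPM was most like that of each member over the 24 animals, by Pearson's r among tested genes with a symbol, were also listed. For *C3* they were *WDR6* (0.94), *CXADR* (0.93) and *ADSS2* (0.92), and for *CFB* they were *CHST11* (0.93), *CXADR* (0.92) and *TIMP1* (0.92). For *CFI* they were *ADD3* (0.95), *ARL2BP* (0.93) and *TRIP6* (0.92), and for *C1S* they were *ARL2BP* (0.92), *WDR6* (0.92) and *CGNL1* (0.91). *CFD* was most like *RASD1* (0.85), *PIK3C2A* (0.85) and *ZC3H7A* (0.84). The members that edgeR did not call had weaker partners. They were *CECR2* (0.80), *GREB1L* (0.78) and *CEP95* (0.77) for *C6*, *KLRB1* (0.76) and *LRRFIP2* (0.75) for *C7*, and *PLK2* (0.61), *GADD45B* (0.58) and *OVGP1* (0.55) for *C1R*. The rows of *C6* and *C1R* held few reads, and r over all animals includes the differences between groups. Within groups, r with the first partner was 0.90 for *C3*, 0.87 for *CFB*, 0.88 for *CFI*, 0.89 for *C1S* and 0.81 for *CFD*. It was 0.75 for *C6*, 0.70 for *C7* and 0.56 for *C1R*. *CXADR*, *WDR6* and *ARL2BP* each appear for a pair of the 4 members that fell. Those members varied together, so their shared partners are not a separate result.

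A list of 47 other complement genes was drawn up by role, of which 36 had a row and 24 were tested. In *T* + *WSD* against *C*, 8 of the 24 were called, 5 lower and 3 higher, against 10% of all tested genes, 5.29% lower and 4.72% higher, and the median log2 fold change over all 24 was -0.095. Among the fluid-phase regulators, 3 of 6 tested fell. *VTN*, vitronectin, which keeps the terminal complex out of membranes, had -2.08 ± 0.46 (SE, adjusted p = 0.00616). All 6 *T* + *WSD* animals, at 1.13 to 6.71 CPM, lay below the controls at 11.1 to 29.4 CPM. That pattern was seen for 2 of the 24 genes and for 4.12% of all tested genes. *C4BPA* and *C4BPB*, the chains of C4b-binding protein, had -4.54 ± 1.26 (SE, adjusted p = 0.0179) and -4.30 ± 1.23 (SE, adjusted p = 0.0197). Their control values were very uneven, with *C4BPA* at 213 CPM in control replicate 1, 112 CPM in replicate 4 and 0.527 to 11.5 CPM in the other 4. In *T* + *WSD*, *C4BPA* was at 0.208 to 6.61 CPM and overlapped with the controls. *C4BPB* also overlapped, with 0 to 18 counts per library in *T* + *WSD* and 2 to 365 in *C*, so its fold change rests partly on values at the floor of 3 counts. Without control replicate 1, *C4BPA* and *C4BPB* were no longer called (adjusted p = 0.0646 and 0.0928), whereas *VTN* was (adjusted p = 0.0202). *CLU*, clusterin, the regulator with the highest CPM, had a log2 fold change of 0.29 with an interval of -0.68 to 1.25.

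Among the 5 tested genes listed under classical and lectin initiation, *C1RL*, a relative of *C1R*, had -0.96 ± 0.21 (SE, adjusted p = 0.00616). It was at 47.2 to 86.2 CPM in *T* + *WSD* and 90.9 to 166 in *C*. Groups wholly below the controls were seen for 4.12% of all tested genes. The collectin *COLEC12*, a scavenger receptor able to bind sugars, had -0.69 ± 0.18 (SE, adjusted p = 0.0141), and *FCN3*, a ficolin that recognizes sugars, rose by 0.96 ± 0.23 (SE, adjusted p = 0.00988). Without control replicate 1, *COLEC12* fell short of the fold threshold, at -0.55. *C1QC*, a chain of the recognition molecule C1q, had -0.38 with an interval of -1.37 to 0.62. Neither properdin (*CFP*), which stabilizes the alternative convertase, at -0.54 with an interval of -1.64 to 0.57, nor *C5*, at 0.17 with -0.23 to 0.57, was called.

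Of 8 tested receptors, 2 rose. *CD93*, a C1q-related receptor found on endothelium, had 0.95 ± 0.22 (SE, adjusted p = 0.00795), with 116 to 154 CPM in *T* + *WSD* and 30.4 to 102 in *C*. Groups wholly above the controls were seen for 1 of the 24 other complement genes and for 3.49% of all tested genes. *ITGAX*, the alpha chain of complement receptor 4, had 1.77 ± 0.53 (SE, adjusted p = 0.0258) against *C* and 1.79 ± 0.53 (SE, adjusted p = 0.0465) against *T*. Its *T* + *WSD* values ran from 32.8 to 150.0 CPM and overlapped with the controls at 4.05 to 41.4 CPM, and the call against *C* was lost without control replicate 1 (adjusted p = 0.0562) or replicate 3, or without *T* + *WSD* replicate 7. *VTN* was the other gene of the list called in *T* + *WSD* against *T*, at -1.49 ± 0.45 (SE, adjusted p = 0.0489). With 1 animal left out, the calls against *T* remained in 14 of 24 fits for *ITGAX* and in 9 of 24 for *VTN*, and that of *VTN* was lost with the library batch as a covariate (adjusted p = 0.0579). *ITGAM*, the alpha chain of complement receptor 3, had -0.27 with an interval of -1.35 to 0.80 against *C*. None of the 3 tested membrane regulators was called in any comparison with edgeR, and *CD55*, which speeds the decay of convertases, had -0.68 with an interval of -1.31 to -0.04 (adjusted p = 0.131) against *C*.

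For either treatment alone, edgeR called 0 of these 24 genes against *C*, and 0% of all tested genes. At an unadjusted p under 0.05 there were 5 for the diet and 2 for testosterone, near the 18.5% and 8.63% of all tested genes. DESeq2 called 3 and 0, against 1.58% and 0.029% of all genes it tested. Between the diet groups and in the interaction edgeR also called 0, against 0.815% and 0.809% of all tested genes. At an unadjusted p under 0.05 there were 5 and 2, against 20% and 13.5% of all tested genes. DESeq2 called 2 and 1, against 2.62% and 2.77% of all genes it tested. The 12 genes with a row that were too low to test included *C8A*, *C8B*, *C8G* and *C9* of the terminal complex, none above 23 counts in any library.

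**Figure D4:**
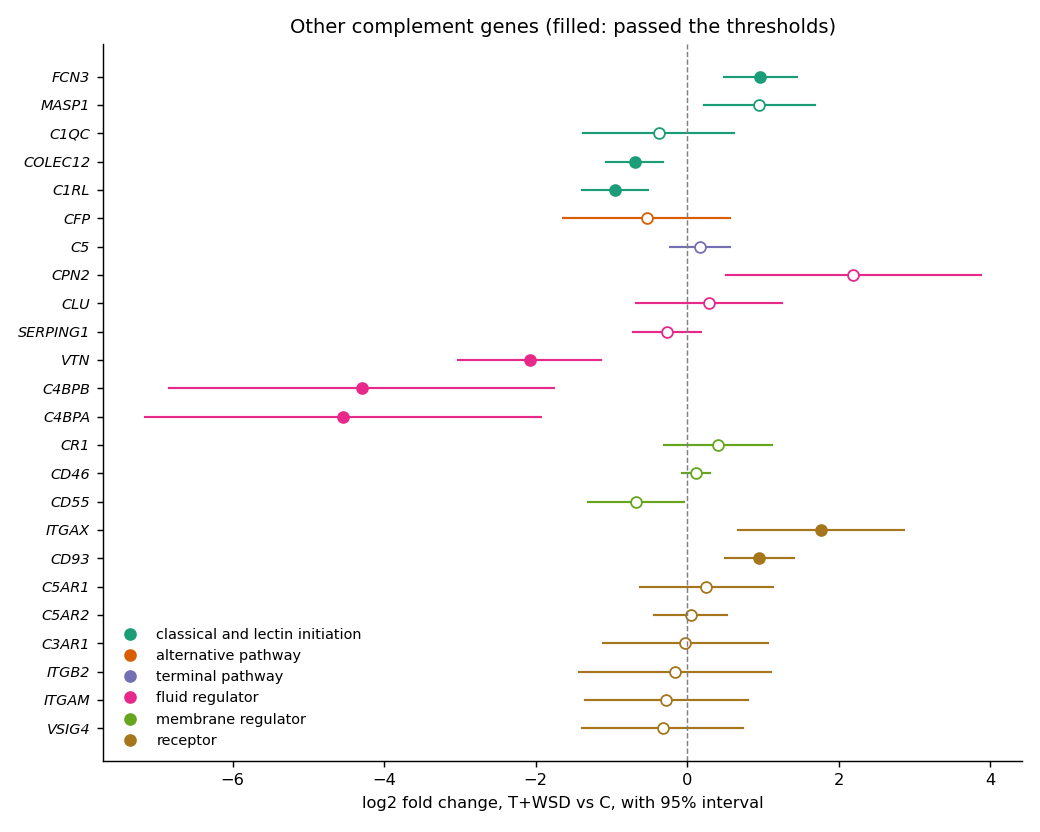
Log2 fold changes of *T* + *WSD* against *C* with 95% intervals for the 24 other complement genes tested, coloured by role, with filled points for the 8 called. The fluid-phase regulators *C4BPA*, *C4BPB* and *VTN* lie below 0, and *FCN3*, *ITGAX* and *CD93* lie above it.

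Some markers of other cells moved with these results. Fewer cells of a type and less RNA per cell cannot be told apart in bulk tissue. Of 12 mesothelial markers listed, which mark the lining of the omentum, 10 had a row and 8 were lower in *T* + *WSD* against *C*. Of all tested genes 5.29% were lower. Among the 8 were *MSLN* (-2.99), *KRT18* (-3.15) and *WT1* (-1.47). *KRT7* had -2.62 (adjusted p = 0.0626) and *CALB2* had 0.28. The summed level of the 10 markers was 1193 to 5037 CPM in *C* (median 1533), 941 to 2222 in *T* (median 1227), 299 to 1469 in *WSD* (median 1159) and 111 to 664 in *T* + *WSD* (median 406). The *T* + *WSD* animals did not overlap with the controls, and none of the markers was at 0 in a whole group.

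Pearson's r of log2 CPM with the mean of these markers over the 24 animals was 0.89 for *CFB*, 0.81 for *CFI*, 0.79 for *C3* and 0.75 for *C1S*, and Spearman's rho was 0.85, 0.84, 0.77 and 0.75. It was -0.66 for *CFD*, 0.31 for *C6*, 0.11 for *C7* and 0.07 for *C1R*, and without control replicate 1 it was 0.23 for *C7* and -0.03 for *C1R*. Within groups, r was 0.78 for *CFB*, 0.69 for *CFI*, 0.67 for *C3*, 0.67 for *C1S* and -0.42 for *CFD*. Leaving out the 2 animals farthest from the median of the marker mean gave 0.82, 0.78, 0.71, 0.66 and -0.65 over the other 22 animals. With the marker mean as a covariate, the log2 fold changes of *T* + *WSD* against *C* were -0.07 for *CFB*, -0.39 for *CFI*, 0.11 for *C3*, 0.15 for *C1S* and 0.41 for *CFD*, and 0 of 15207 genes were called. The marker mean ran from 5.81 to 6.97 log2 CPM in *C* and from 2.28 to 4.73 in *T* + *WSD*, so that fit compared groups with no shared marker level, and the part of the mesothelium in the result was not tested.

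**Figure D5:**
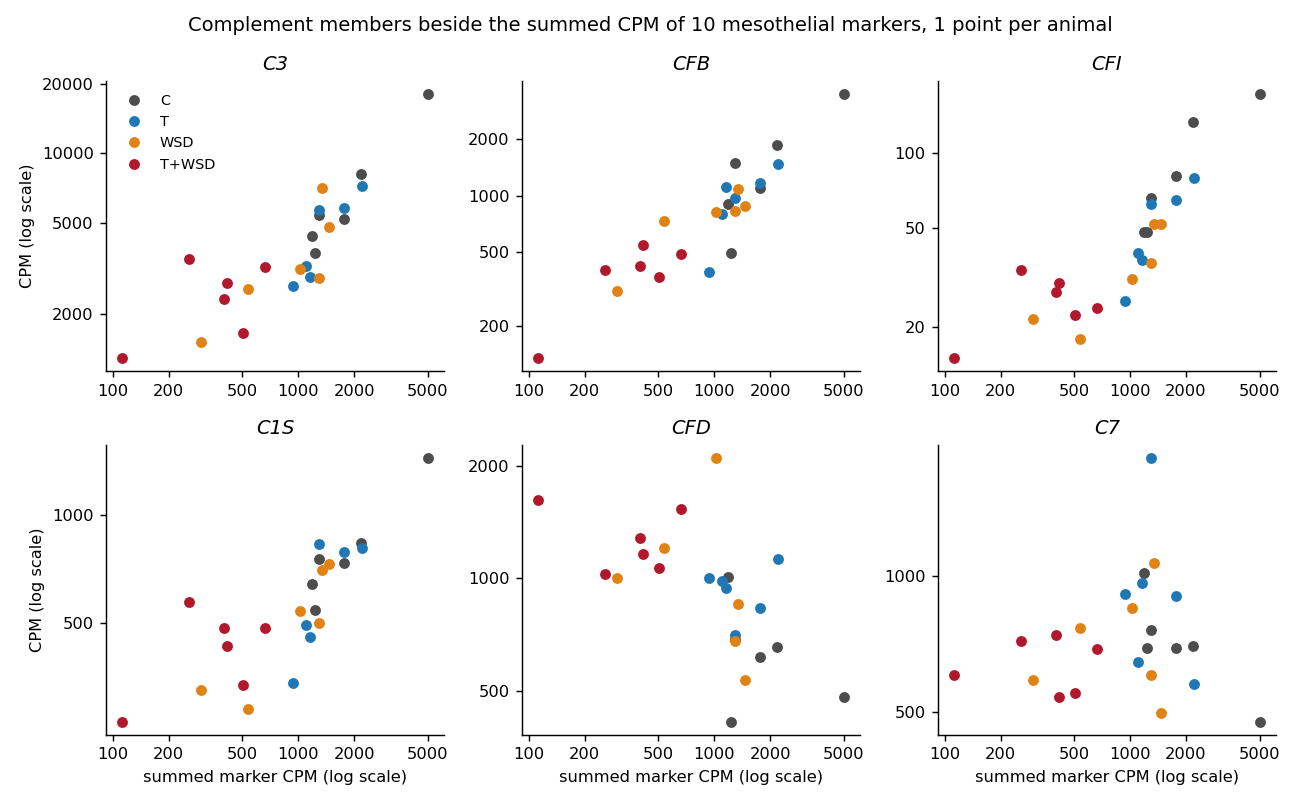
CPM of 6 members against the summed CPM of 10 mesothelial markers, both on log scales, with 1 point per animal coloured by group. *C3*, *CFB*, *CFI* and *C1S* are higher in animals with higher marker sums, with control replicate 1 at the upper right, *CFD* is lower in them, and *C7* shows no such order.

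The other marker lists were mixed, and 4.72% of all tested genes were called higher in *T* + *WSD* against *C*. Among these lists, only the endothelial sums did not overlap with the controls. In *T* + *WSD* against *C*, 2 of 9 adipocyte genes tested were higher (*LEP* and *FABP4*), and their sum was 19653 to 31238 CPM, against 3513 to 21417 in *C*. The endothelial list had 4 of 6 higher (*PECAM1*, *VWF*, *CDH5* and *CLDN5*), with sums of 1699 to 2700 CPM against 925 to 1553. Of the macrophage list 1 of 8 was higher (*MSR1*), with sums of 567 to 1245 CPM against 211 to 1326, and of the fibroblast list 1 of 9 (*DPT*), with sums of 7432 to 16652 against 8151 to 25339. Of 12 hepatocyte genes, 5 were tested and 2 were higher (*ALB* and *APOB*), with sums of 128 to 383 CPM against 38.1 to 526, and *APOA2* and *AHSG* were at 0 in all controls. *TF* had the largest means of that list, 205 CPM in *C* and 236 in *T* + *WSD*, and weighs most in the sums. The means of *ALB* were 0.212 and 6.96 CPM, and those of *APOB* 0.762 and 3.04. Of the hepatocyte list, only *SERPINA1* had a lower mean in *T* + *WSD* than in *C*. The lymphocyte list had 0 of 5 called, at 1.98 to 9.32 CPM against 2.28 to 9.85. The part of these cells in the complement results was not tested.

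The library batch was spread over the groups. With it as a covariate, the same 5 members were called in *T* + *WSD* against *C*. Among the 16 libraries outside it, 4 per group, no member passed the test, where 0.505% of 15448 genes were called and the adjusted p was 0.0608 for *CFI*, 0.0948 for *CFB*, 0.118 for *CFD*, 0.167 for *C3* and 0.221 for *C1S*. The log2 fold changes there were -1.56, -1.45, 1.03, -0.998 and -0.64. Outside the batch *C3* was at 3671 to 8128 CPM in *C* and 1652 to 3466 in *T* + *WSD*, *CFI* at 47.97 to 134 and 22.3 to 34.0, and *CFD* at 415 to 688 and 1029 to 1535, so these groups of 4 did not overlap. With so few animals, 8.05% of all tested genes lay wholly below the controls and 6.15% wholly above. *CFB* and *C1S* did overlap there.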

How the data were processed

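Each animal gave 1 library of total RNA from an omental fat biopsy, made with ribosomal RNA depletion and read from a single end. Per the labels and the study's methods, the authors checked reads with FastQC 0.11.5, trimmed them with Trimmomatic 0.36, aligned them with STAR 2.5.2b, and deposited raw, not normalized, gene counts in 1 table. The counting tool and its strand setting are not given in the sources used here, so reads of antisense, overlapping or near-identical genes may be assigned wrongly. Groups came from the sample labels, and the labels and methods differ on age, which was not used.

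The counts were fitted in R 4.3.3 with edgeR 4.0.16 (filterByExpr at its minimum of 10 counts and total of 15, TMM, glmQLFit with robust=TRUE and legacy=TRUE, two-sided quasi-likelihood F-tests) in 1 model of 24 animals in 4 groups, and p values were adjusted by Benjamini-Hochberg over 15207 genes. Genes were called at a fold change over 1.5 with an adjusted p under 0.05, or at an adjusted p under 0.1 for the interaction. CPM used TMM library sizes. Adjusted p values are edgeR's unless DESeq2 1.42.0 is named. The p values set the differences between groups against the spread between these animals. Counts at or under the floor of 3 carry a large counting error. The procedure was tested on simulated counts that held no library batch. That test does not cover the dependence of the calls on the batch or on control replicate 1.

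The members and lists were chosen with earlier results of these data known, and no list is tested as a whole. Named genes are the members, other complement genes called in any comparison, the tested gene with the highest mean CPM in each role, and the 3 genes most like each member. *C1QC* and the genes too low to test were named after their values were seen. Genes that these rules would have named and that are not reported here were left out of the text and of the complement list and its counts. Symbols came from a gene name table. Alternatives were DESeq2, RLE or upper-quartile normalization, no filter or at least 10 counts in every animal, robust=FALSE, legacy=FALSE, no fold-change threshold, only the 2 groups compared, the library batch or the mesothelial mean as a covariate, only libraries outside the batch, ENSMMUG00000038258 removed, and each animal left out.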

Additional observations from a re-analysis of the deposited data

Results flagged for a closer look

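In each group of 6, the gap between the lowest or highest animal and its neighbour on the log2 CPM scale (CPM where an animal was at 0) was set against the range of the group by Dixon's criterion, which flags about 1 in 20 groups by chance. Of 32 groups (8 members in 4 groups), 4 had such an animal, each time the lowest. *CFB* was at 306.464 CPM in *WSD* replicate 21 and at 134.554 CPM in *T* + *WSD* replicate 8, and these animals also had the lowest mesothelial marker sums of their groups, 299 and 111 CPM. *T* + *WSD* replicate 8 was also the smallest library, with 54.7% of its 6899185 counts in ENSMMUG00000038258. *C1R* was at 0.083 CPM in *WSD* replicate 24 and at 0.042 CPM in *T* + *WSD* replicate 12, which are 2 and 1 counts. The parts of the marker level and of the state of the library in these values were not tested.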

How the results depend on the processing

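The groups carry different replicate numbers. No paired analysis was possible because the groups compared share no replicate number. In *T* + *WSD* against *C*, 5 members were called under the other normalizations, filters and priors and with the library batch as a covariate. Of all tested genes, these settings called from 5.42% with no filter to 10.7% with legacy=FALSE. DESeq2 called 6 members (*C6* added), against 10.9% of all genes it tested. With 1 animal left out 4 to 6 members were called, against 5.87% to 11.7% of all tested genes. The count of members was 0 with only the libraries outside the batch and 0 with the mesothelial mean as a covariate, against 0.505% and 0% of all tested genes. The count of the other complement genes was also 0 and 0 there, where the main fit called 8. That count was 5 with at least 10 counts in every animal, against 9.5% of all tested genes. It ran from 4 to 9 with 1 animal left out, 4 without control replicate 1.

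The *CFB* call in *T* + *WSD* against *T* was the least stable. The count of members was 0 with RLE, upper-quartile normalization, no filter, the batch as a covariate, outside the batch and with the mesothelial mean. Those settings called 0% to 3.62% of all tested genes. It was 2 with DESeq2, 3 with only the 2 groups compared, and 0 to 2 with 1 animal left out. The shares of all tested genes were 6.1% with DESeq2, 7.27% with only the 2 groups and 1.56% to 5.4% with 1 animal left out. For other complement genes the count was 1 with RLE, upper-quartile normalization, at least 10 counts in every animal (3.58% of all tested genes) or the batch as a covariate. It was 0 with no filter, outside the batch or with the mesothelial mean, and 0 to 3 with 1 animal left out. DESeq2 called 1 member in *WSD* against *C*. Of the other complement genes, it called 3 in *WSD* against *C*, 2 in *T* + *WSD* against *WSD* and 1 in the interaction. Of all genes it tested, DESeq2 called 1.58%, 2.62% and 2.77% in these comparisons. In the interaction 1 was also called with at least 10 counts in every animal, against 1.28% of all tested genes. With 1 animal left out counts were 0 to 2 in *T* + *WSD* against *WSD*, against 0.0587% to 2.92% of all tested genes. They were 0 to 1 in the interaction, against 0.261% to 3.44%.

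With the mesothelial mean the sign turned in *T* + *WSD* against *C* for *C1S* (0.15) and *C3* (0.11). It turned against *WSD* for *C1S* (0.45), *C3* (0.52), *CFB* (0.16), *CFI* (0.46) and *CFD* (-0.072), and against *T* for *C1S* (0.40), *C3* (0.49), *CFB* (0.25), *CFI* (0.19) and *CFD* (-0.048). It also turned for the interaction of *CFB* (0.48) and for *C7* in *WSD* against *C* (-0.070). Other signs turned too. *C7* in *WSD* against *C* was -0.018 with upper-quartile normalization, -0.0067 with at least 10 counts in every animal and -0.16 outside the batch, and *C6* in *T* against *C* was 0.047 outside the batch. With 1 animal left out, *C7* in *WSD* against *C* ran from -0.13 to 0.14, *C6* in *T* against *C* from -0.28 to 0.53 and *C1R* in *T* + *WSD* against *WSD* from -0.57 to 0.017. The interaction then ran from -0.34 to 0.42 for *C3*, from -0.064 to 0.28 for *C1S* and from -0.43 to 0.046 for *CFD*. The causes were not tested. *C1R* and *C6*, with lowest counts of 0 and 3 in a library, could not be tested with at least 10 counts in every animal.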

Other observations

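Of the other complement genes named for a call, the membrane cofactor *CD46* passed DESeq2's threshold for the interaction (0.46, adjusted p = 0.0462), and *COLEC10*, which was too low for the filter in edgeR, passed it in *T* + *WSD* against *C* (-4.14, adjusted p = 0.0018). DESeq2 also called *CPN2* (2.29, adjusted p = 0.031) and *MASP1* (0.97, adjusted p = 0.0351) there, and *CD93* (0.73, adjusted p = 0.0478), *C4BPA* (-3.60, adjusted p = 0.0427) and *C4BPB* (-3.49, adjusted p = 0.042) in *WSD* against *C*. These are values of 1 tool, and edgeR called none of them in those comparisons.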
